A study of Homo sapiens with 6 samples.

Results

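The 53 genes described here encode nucleolar factors that transcribe ribosomal RNA, process and modify it, or assemble it with ribosomal proteins into the small and large ribosomal subunits. They were chosen as a hand-made list of gene symbols, and all 53 were found among the 56638 gene symbols of the count tables. In a line of human colorectal cancer cells, RNA was sequenced in 6 libraries, 3 titled control siRNA, from cells given a nonspecific siRNA, and 3 titled GLCC1 siRNA, from cells given an siRNA against lncRNA-AF339830, a long non-coding RNA that the study named GLCC1. A small interfering RNA (siRNA) guides the cleavage of a matching transcript. No other treatment, genotype or time point separated the groups, and which siRNA against GLCC1 was sequenced is not given in the sources used here. The labels name the line SW480, whereas the methods of the study name DLD-1, and no test was made of which is right. Nothing in the labels says that the 3 libraries of a group came from separate cultures, so p-values measure the spread between these libraries, which may be technical.

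Ribosome production starts in the nucleolus, where RNA polymerase I copies the ribosomal DNA into one long precursor RNA. Small nucleolar ribonucleoproteins (snoRNPs) then guide its cleavage, methylation and pseudouridylation, while helicases, GTPases, nucleases and scaffold proteins fold it and join it to ribosomal proteins. The pathway consumes much of the energy of a growing cell, is raised in many cancers including colorectal cancer, and many of its genes are known targets of the transcription factor c-Myc, the protein that the study placed downstream of GLCC1.

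The count tables hold 11948790 to 19042516 read pairs on genes in each library. The library names put each group under the other siRNA than the titles do, and the titles were followed throughout. Under the library names every direction given here would be turned. GLCC1 is not listed by that name in the count tables. FARP1, the annotated gene over the GLCC1 locus, was measured at 109, 110.0 and 113 counts per 1000000 read pairs (CPM) in the control libraries and at 63.2, 65.6 and 65.4 CPM in the GLCC1 siRNA libraries, a fall with a log2 fold change of -0.77 (SE 0.08, adjusted p = 9.2e-06 in edgeR). Whether these reads report GLCC1 was not tested. GLCC1 siRNA replicate 2 stood apart from the other libraries. It had the fewest read pairs and the largest share of read pairs outside annotated genes, 14.2% against 11.2% to 12.7% in the others. The 6 colon epithelium markers EPCAM, KRT8, KRT18, KRT19, CDX2 and VIL1 were detected in every library at 73.5 CPM or more. Of the markers of other cell types, PTPRC and PECAM1 had no read pair in any library, CD3E and COL3A1 had 2 each over all libraries, and COL1A1 was between 6.68 and 15.0 CPM. These epithelial markers did not move together. The control and GLCC1 siRNA libraries held 3409 to 3768 and 1006 to 1301 CPM of KRT8, 416 to 430.1 and 106 to 128 CPM of KRT18, and 828 to 944 and 303 to 397 CPM of KRT19. They held 313 to 329 and 216 to 305 CPM of EPCAM, 89.5 to 97.6 and 73.5 to 83.7 CPM of CDX2, and, in the other direction, 198 to 209.6 and 225 to 256 CPM of VIL1.

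Most ribosome biogenesis factors were lower in the GLCC1 siRNA libraries. Of the 53 genes, 31 fell and 4 rose at an adjusted p below 0.05 in the quasi-likelihood test of edgeR with Benjamini-Hochberg adjustment over all 23074 genes tested, and 18 did not pass. Over all genes tested, 16.7% fell and 14.9% rose. Most of these factors are abundant transcripts, and among genes that averaged 10 CPM or more, 29.8% fell and 20.1% rose, whereas 30 of the 50 factors at that level fell and 4 rose. The median log2 fold change of the 53 genes was -0.39, against 0.03 over all genes tested and -0.07 over the genes with at least 10 CPM. In 34 of those 50 factors every GLCC1 siRNA library was below every control library, where 37.8% of the genes at that level showed the same order. The median of the factors relative to the control mean was -0.37, -0.50 and -0.37 on the log2 scale in GLCC1 siRNA replicates 1, 2 and 3, and 0.03, -0.08 and 0.04 in the control libraries.

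**Figure D1:**
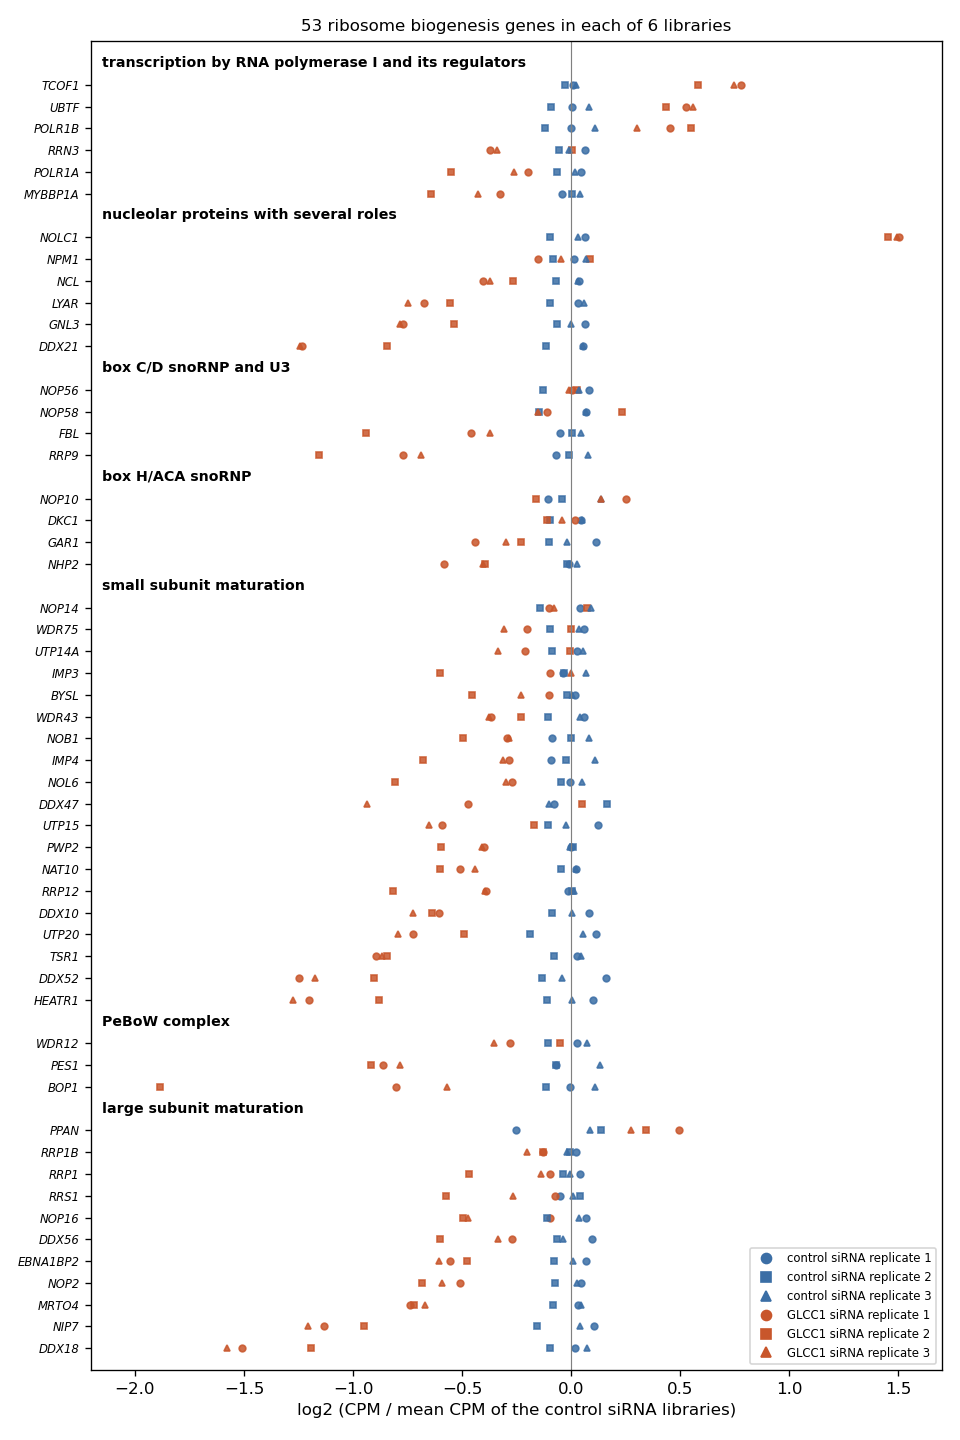
Each point is the level of one gene in one library, as the log2 ratio of its CPM to the mean of the 3 control siRNA libraries (horizontal axis), with the 53 genes grouped by role and sorted by fold change (vertical axis). Blue points are control siRNA and orange points GLCC1 siRNA libraries, with a symbol for each replicate. Orange points lie left of the blue ones for most genes, NOLC1 stands far to the right, and replicate 2 (squares) often lies off the other 2 GLCC1 siRNA libraries.

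**Figure D2:**
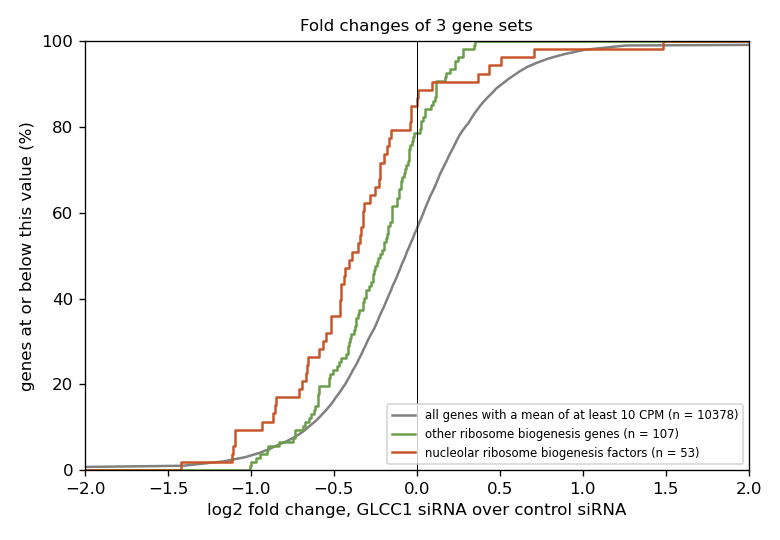
Cumulative share of genes (vertical axis, in %) at or below each log2 fold change of GLCC1 siRNA over control siRNA (horizontal axis) for the 53 factors, the 107 other ribosome biogenesis genes and all genes that averaged 10 CPM or more. The curve of the 53 factors lies furthest to the left over most of its height, with a median of -0.39, and has a tail on the right made by the 4 genes that rose.

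Summed over the 53 genes, the level was 7814, 7264 and 7872 CPM in the control libraries and 6072, 6297 and 6089 CPM in the GLCC1 siRNA libraries, so that the groups did not overlap. In bulk RNA, fewer cells that express a gene and less of its RNA per cell cannot be told apart. Per kilobase of annotated transcript, the control level ran from 1.35 CPM for DDX47 to 563 CPM for NPM1, and NCL with 402 CPM and FBL with 256 CPM per kilobase came next below NPM1.

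The 4 genes that rose were NOLC1, TCOF1, UBTF and POLR1B, 3 of them among the 6 genes of RNA polymerase I transcription. NOLC1 encodes Nopp140, a phosphoprotein that chaperones snoRNPs and is related to treacle. It had 119, 106 and 116 CPM in control replicates 1, 2 and 3 and 322, 311 and 320.1 CPM in GLCC1 siRNA replicates 1, 2 and 3. This was the largest fold change among the 53 genes in edgeR, a 2.80-fold rise with a log2 fold change of 1.48 (SE 0.08, adjusted p = 4.3e-08). TCOF1 encodes treacle, the nucleolar scaffold that binds UBF and RNA polymerase I and is mutated in Treacher Collins syndrome. Its level was 109.6, 107 and 111 CPM in the control libraries and 187, 163 and 183 CPM in the GLCC1 siRNA libraries (log2 fold change 0.70, SE 0.08, adjusted p = 2.7e-05). Every GLCC1 siRNA library was thus above every control library for the transcripts of both of these related proteins. The share of all genes with that order was not computed.

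UBTF encodes UBF, which coats active ribosomal DNA. The control libraries held 84.7, 79.2 and 89.4 CPM of UBTF and the GLCC1 siRNA libraries 122, 114 and 124 CPM (log2 fold change 0.51, SE 0.09, adjusted p = 0.00045). POLR1B, the second-largest subunit of RNA polymerase I, was at 61.5, 56.6 and 66.5 CPM in the controls and at 84.3, 90.0 and 75.8 CPM after GLCC1 siRNA (log2 fold change 0.44, SE 0.10, adjusted p = 0.0035). Neither gene overlapped between the groups. The largest subunit went the other way. POLR1A had 138, 128 and 136 CPM in the control libraries and 117, 91.4 and 112 CPM in the GLCC1 siRNA libraries, a fall by 20.3% (log2 fold change -0.33, SE 0.10, adjusted p = 0.02). MYBBP1A, a nucleolar protein that binds RNA polymerase I and restrains its transcription, fell from 119, 122 and 125 CPM to 97.3, 78.2 and 90.8 CPM (log2 fold change -0.46, SE 0.09, adjusted p = 0.0019). For POLR1A the log2 fold change was -0.31 without control replicate 1 (adjusted p = 0.089) and -0.32 without control replicate 3 (adjusted p = 0.085), close to its value with all libraries but no longer past the threshold, and -0.21 with libraries scaled to their totals (adjusted p = 0.12).

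RRN3 (TIF-IA), the initiation factor that joins RNA polymerase I to its promoter, had 107, 98.7 and 102 CPM in the controls and 79.5, 103 and 81.1 CPM in the GLCC1 siRNA libraries. Replicates 1 and 3 lay below all controls while replicate 2 lay among them, and the difference did not pass (log2 fold change -0.23, SE 0.10, adjusted p = 0.12). Without GLCC1 siRNA replicate 2 the log2 fold change was -0.35 (adjusted p = 1.5e-06), in a fit where 22.6% of 22470 genes tested fell. Reads of RRN3 can be shared with its near-identical copies, of which RRN3P1 was at 15.7 ± 2.35 CPM in the controls and 17.1 ± 1.53 CPM after GLCC1 siRNA (SD, n = 3 each).

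Among the abundant nucleolar proteins with several roles, 4 of 6 fell, 1 rose, namely NOLC1, and NPM1 did not pass. Of all genes that averaged 10 CPM or more, 29.8% fell and 20.1% rose. DDX21, a helicase that acts in ribosomal RNA transcription and processing, had 508, 451 and 507 CPM in the control libraries and 208, 272 and 207 CPM in the GLCC1 siRNA libraries. The groups stood far apart, and replicate 2 was the highest GLCC1 siRNA library (log2 fold change -1.10, SE 0.11, adjusted p = 5.6e-06). GNL3 encodes nucleostemin, a nucleolar GTPase of proliferating and stem cells. It was at 233, 213 and 223 CPM in the controls and 131, 154 and 129.8 CPM after GLCC1 siRNA, a fall by 38.1% (log2 fold change -0.69, SE 0.09, adjusted p = 5.5e-05). LYAR, a zinc finger protein of growing cells, fell from 78.2, 71.5 and 79.8 CPM to 47.9, 52.0 and 45.5 CPM (log2 fold change -0.66, SE 0.09, adjusted p = 0.00011).

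NCL and NPM1, the most abundant factors, differed in their response. Nucleolin (NCL), which binds the precursor RNA from its synthesis on, had 1617, 1504 and 1615 CPM in the control libraries and 1192, 1314 and 1222 CPM in the GLCC1 siRNA libraries, with no overlap (log2 fold change -0.35, SE 0.07, adjusted p = 0.0029). Nucleophosmin (NPM1), a histone and ribosomal protein chaperone, had 749, 701 and 778 CPM in the controls and 668, 788 and 719 CPM after GLCC1 siRNA, and the groups overlapped (log2 fold change -0.03, SE 0.08, adjusted p = 0.78). NPM1 has many processed copies in the genome, and the counting could have split its reads among them. The copy NPM1P27 alone was counted at 670.2 ± 39.3 CPM in the controls and 646 ± 42.6 CPM after GLCC1 siRNA (SD, n = 3 each), close to the level of NPM1, with a log2 fold change of -0.05. NPM1 is therefore uncertain in level, and both genes gave small differences.

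Box C/D snoRNPs methylate ribosomal RNA, and a special one, the U3 particle, guides its first cleavages. Their methyltransferase fibrillarin (FBL) fell, whereas the scaffold proteins NOP56 and NOP58 gave no detectable difference. FBL had 278, 289 and 297 CPM in the control libraries and 209, 149.9 and 222 CPM in the GLCC1 siRNA libraries (log2 fold change -0.57, SE 0.12, adjusted p = 0.0026). NOP56 was at 269.8, 233 and 262 CPM in the controls and at 255, 259.6 and 253 CPM after GLCC1 siRNA, where the groups overlapped (log2 fold change 0.0063, SE 0.08, adjusted p = 0.96). NOP58 was at 148, 128 and 149 CPM in the controls and at 131, 166 and 127 CPM after GLCC1 siRNA, again with overlap (log2 fold change -0.0003, SE 0.11). RRP9, the U3-specific protein, fell from 40.7, 42.4 and 45.1 CPM to 25.1, 19.2 and 26.5 CPM, by 44.5% (log2 fold change -0.85, SE 0.12, adjusted p = 0.00011). Replicate 2 was the lowest GLCC1 siRNA library for FBL and RRP9 and the highest for NOP58.

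Box H/ACA snoRNPs pseudouridylate ribosomal RNA, and the same proteins bind telomerase RNA. DKC1 encodes their enzyme, dyskerin, and GAR1, NHP2 and NOP10 its partners. DKC1 had 116, 105 and 116 CPM in the controls and 113, 104 and 109 CPM after GLCC1 siRNA, and the groups overlapped (log2 fold change -0.04, SE 0.08, adjusted p = 0.73). NHP2 fell from 73.9, 73.5 and 75.9 CPM to 49.7, 56.5 and 56.3 CPM with no overlap (log2 fold change -0.46, SE 0.09, adjusted p = 0.0013). GAR1 fell from 51.8, 44.7 and 47.2 CPM to 35.3, 40.9 and 39.0 CPM (log2 fold change -0.32, SE 0.10, adjusted p = 0.024), a call that was lost in 4 of the 6 fits that left out a library, namely those without control replicates 1 or 3 or GLCC1 siRNA replicates 1 or 3 (adjusted p between 0.05 and 0.13), with the replicate block (adjusted p = 0.062) and with library totals (adjusted p = 0.15). NOP10 had 61.4, 64.2 and 72.5 CPM in the controls and 78.6, 59.0 and 72.7 CPM after GLCC1 siRNA and did not pass (log2 fold change 0.09, SE 0.11, adjusted p = 0.59). Without GLCC1 siRNA replicate 2, its lowest library, NOP10 was higher at a log2 fold change of 0.20 (adjusted p = 0.0085). In that fit 21.6% of genes tested rose.

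PES1, BOP1 and WDR12 form the PeBoW complex, which is needed to mature the large-subunit RNAs. PES1 had 128, 128 and 147 CPM in the control libraries and 73.9, 71.3 and 78.1 CPM in the GLCC1 siRNA libraries, a fall by 44.7% (log2 fold change -0.85, SE 0.09, adjusted p = 9.5e-06). BOP1 fell from 7.61, 7.05 and 8.25 CPM to 4.38, 2.07 and 5.15 CPM (log2 fold change -0.94, SE 0.23, adjusted p = 0.0065), at a count level far under that of its partners, and it was lowest in replicate 2. WDR12 was at 90.6, 82.7 and 93.8 CPM in the controls and at 73.3, 85.9 and 69.7 CPM after GLCC1 siRNA. GLCC1 siRNA replicates 1 and 3 were below all controls and replicate 2 was not, and the difference did not pass (log2 fold change -0.22, SE 0.10, adjusted p = 0.1). Without replicate 2 the log2 fold change of WDR12 was -0.31 (adjusted p = 2.9e-05), in a fit where 22.6% of genes tested fell.

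Whether partners of one complex kept their proportions was examined with the log2 ratio of their CPM in each library, over 12 pairs in 3 complexes. The groups did not overlap in 7 pairs. The share among other pairs of genes was not computed, and pairs that share a gene are not independent. FBL over NOP56 was 0.04, 0.31 and 0.18 in the control libraries and -0.29, -0.79 and -0.19 in the GLCC1 siRNA libraries. DKC1 over NHP2 was 0.65, 0.51 and 0.61 in the controls and 1.19, 0.88 and 0.95 after GLCC1 siRNA. PES1 over WDR12 was 0.50, 0.63 and 0.65 in the controls and 0.01, -0.27 and 0.16 after GLCC1 siRNA. In these libraries the methyltransferase stood lower against its scaffold, the pseudouridine synthase higher against its partner NHP2, and PES1 lower against WDR12. NOP56 over NOP58 overlapped between the groups, with means of 0.85 ± 0.03 in the controls and 0.86 ± 0.19 after GLCC1 siRNA (SD, n = 3 each). With 3 libraries in each group, a two-sided exact permutation test cannot give a p below 0.1, which is what the 7 pairs gave (0.171 after Benjamini-Hochberg adjustment over the 12 pairs), so no ratio passed a threshold of 0.05.

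In small subunit maturation, 13 of the 19 genes fell, none rose and 6 did not pass in the edgeR test, with a median log2 fold change of -0.44. For comparison, 29.8% of all genes that averaged 10 CPM or more fell and 20.1% rose. All 19 estimates were below 0 with all libraries and TMM scaling, although that of NOP14, near 0, turned positive with library totals (0.09). The count of genes that rose was 0 also at an unadjusted p below 0.05 and in DESeq2. HEATR1, the human counterpart of yeast Utp10, which binds the early precursor and is also needed for RNA polymerase I transcription, had 162, 139.9 and 152 CPM in the controls and 65.7, 82.2 and 62.4 CPM after GLCC1 siRNA (log2 fold change -1.11, SE 0.11, adjusted p = 5.5e-06). DDX52, a DEAD-box helicase and counterpart of yeast Rok1, fell from 64.7, 52.8 and 56.4 CPM to 24.4, 31.0 and 25.7 CPM (log2 fold change -1.11, SE 0.12, adjusted p = 9.3e-06). In both genes replicate 2 was the highest GLCC1 siRNA library, and groups that did not overlap were part of the rule that chose them. TSR1, a GTPase-like protein of late, cytoplasmic small-subunit precursors, fell from 162, 151 and 164 CPM to 85.6, 88.6 and 87.1 CPM (log2 fold change -0.87, SE 0.08, adjusted p = 3.2e-06), with GLCC1 siRNA libraries within 3 CPM of each other. UTP20, a large scaffold of the early precursor, fell from 136, 110.3 and 130.4 CPM to 76.0, 89.2 and 72.4 CPM (log2 fold change -0.67, SE 0.11, adjusted p = 0.00031).

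The other small subunit genes that fell had log2 fold changes between -0.65 and -0.32. They were DDX10 (-0.65), RRP12 (-0.52), NAT10, the RNA cytidine acetyltransferase (-0.52), PWP2 (-0.46), UTP15 (-0.46), NOL6 (-0.43), IMP4 (-0.41), the endonuclease NOB1 (-0.35) and WDR43 (-0.32). The calls of UTP15, WDR43, NOL6, IMP4 and NOB1 were lost with library totals. Without control replicate 1 the calls of UTP15, WDR43 and NOL6 were lost, without control replicate 2 that of NOL6, without control replicate 3 those of WDR43, NOL6, IMP4 and NOB1, and without GLCC1 siRNA replicate 1 or 3 that of UTP15. The log2 fold change of NOL6 was -0.28 without GLCC1 siRNA replicate 2. UTP14A, WDR75, IMP3, NOP14, DDX47 and BYSL did not pass. NOP14 shares 20.6% of its exon bases with its antisense gene NOP14-AS1, which fell (log2 fold change -0.44, SE 0.11, adjusted p = 0.0063), and the library kit named in the labels does not mark strand. DDX47 was counted at only 2.46 ± 0.258 CPM in the controls (SD, n = 3), and 99.7% of its exon bases in GENCODE 44 are shared with APOLD1. Such sharing did not go with low counts throughout, since it was 100% for PWP2 and 96.2% for NOP2, which had 96.3 and 112 CPM on average in the controls, and 48.2% for NHP2. HEATR1 and TSR1, 2 of the genes with large falls, shared 24.8% and 27.0% of their exon bases. Whether these overlaps were in the annotation used for counting was not tested.

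In large subunit maturation, 6 of the 11 genes fell, none rose and 5 did not pass in the edgeR test, with a median log2 fold change of -0.39. The count of genes that rose was 0 also at an unadjusted p below 0.05 and in DESeq2. Again, 29.8% of all genes that averaged 10 CPM or more fell and 20.1% rose in edgeR. DDX18, the helicase related to yeast Has1, showed the largest fall of the 53 genes. It had 228, 211 and 237 CPM in the control libraries and 79.1, 98.4 and 75.3 CPM in the GLCC1 siRNA libraries, a fall by 62.6% (log2 fold change -1.42, SE 0.10, adjusted p = 4.9e-07). NIP7, a small RNA-binding assembly factor, fell from 58.1, 48.4 and 55.5 CPM to 24.7, 28.0 and 23.4 CPM (log2 fold change -1.10, SE 0.11, adjusted p = 5.5e-06). MRTO4, which holds the place of a stalk protein on the nascent subunit, fell from 98.5, 91.0 and 99.4 CPM to 57.7, 58.5 and 60.5 CPM (log2 fold change -0.71, SE 0.08, adjusted p = 2.8e-05). NOP2, a cytosine methyltransferase of large-subunit RNA, fell from 115, 106 and 114 CPM to 78.6, 69.6 and 74.1 CPM (log2 fold change -0.59, SE 0.09, adjusted p = 0.00015). That the groups did not overlap in these genes follows from the rule by which they were chosen.

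EBNA1BP2 and the helicase DDX56 fell as well, with log2 fold changes of -0.55 and -0.39, and the call of DDX56 was lost without control replicate 1 and with library totals. NOP16, RRS1, RRP1 and RRP1B had log2 fold changes between -0.34 and -0.15 and did not pass. PPAN was the one large subunit gene with an estimate above 0, at 2.95, 3.86 and 3.73 CPM in the controls and 4.95, 4.45 and 4.25 CPM after GLCC1 siRNA (log2 fold change 0.37, adjusted p = 0.13). It shares 61.8% of its exon bases with the readthrough gene PPAN-P2RY11 and with P2RY11, and the part of this overlap in its low count was not tested. The 6 DEAD-box helicases were looked at together after their values were seen. Of these, 5 fell and DDX47 did not pass, with a median log2 fold change of -0.88. Over all genes tested 16.7% fell, and 29.8% of those that averaged 10 CPM or more. Among DEAD-box genes of the further pathway list below, DDX27 (-0.29), DDX49 (-0.69), DDX51 (-0.90) and DDX54 (-0.48) fell. DDX24 (0.18) and DDX31 (-0.03) did not pass.

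The other genes of the pathway were taken from a list of 107, none of them among the 53. Of these, 46 (43.0%) fell and 2 (1.87%) rose, with a median log2 fold change of -0.22, where 29.8% of genes that averaged 10 CPM or more fell, 20.1% rose and the median was -0.07. The 16 further RNA polymerase I subunits and factors include ZNRD1 and CD3EAP, which averaged under 10 CPM. Of the 16, 6 (37.5%) fell, not far from the 29.8% of genes that averaged 10 CPM or more, and none rose in edgeR. Those with the largest falls (log2 fold change in parentheses, here and for the lists that follow) were POLR2E (-0.67), a subunit shared by the nuclear RNA polymerases, POLR1C (-0.64) and TWISTNB (-0.53), another polymerase I subunit. Among 43 further small subunit factors, 20 fell and 1 rose. LTV1 (-1.01), NOC4L (-0.97) and NOP9 (-0.95) fell most, and MPHOSPH10, a component of the U3 particle, rose (0.35, SE 0.12, adjusted p = 0.036). MPHOSPH10 had 54.1, 72.8 and 54.2 CPM in the GLCC1 siRNA libraries, and its log2 fold change was 0.20 without replicate 2 (adjusted p = 0.0089), while its call was lost without any 1 of the control replicates (adjusted p between 0.087 and 0.15). Among 48 further large subunit factors, 20 fell and 1 rose. NOC2L (-0.9997), DDX51 (-0.90) and NOL8 (-0.83) fell most, and TEX10 rose (0.35, SE 0.10, adjusted p = 0.022), a call that was lost without control replicate 2 (adjusted p = 0.12) or 3 (adjusted p = 0.081). Among the 16 other polymerase I genes, 0 rose at an unadjusted p below 0.05 and 0 in DESeq2, unlike UBTF, TCOF1 and POLR1B.

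GLCC1 siRNA replicate 2 departed from replicates 1 and 3 in step with the base composition of the transcripts. Over the 52 factors with an annotated transcript, the log2 difference between replicate 2 and the mean of the other 2 GLCC1 siRNA libraries had a Pearson's r of -0.80 and a Spearman's rho of -0.82 with GC content, which describes genes that share these libraries and carries no test. Over 9503 genes with at least 10 CPM the r was -0.82. Of the 26 factors above 50% GC, 22 were lower in replicate 2, and of the 26 at 50% or less, 3 were. Without replicate 2, 38 factors fell and 5 rose, against 22.6% and 21.6% of 22470 genes tested, and the median log2 fold change of the factors was -0.36. The 31 genes that fell and the 4 that rose with all libraries all passed without replicate 2 as well, and RRN3, UTP14A, WDR75, DDX47, WDR12, NOP16 and RRP1B were added to the genes that fell and NOP10 to those that rose.

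**Figure D3:**
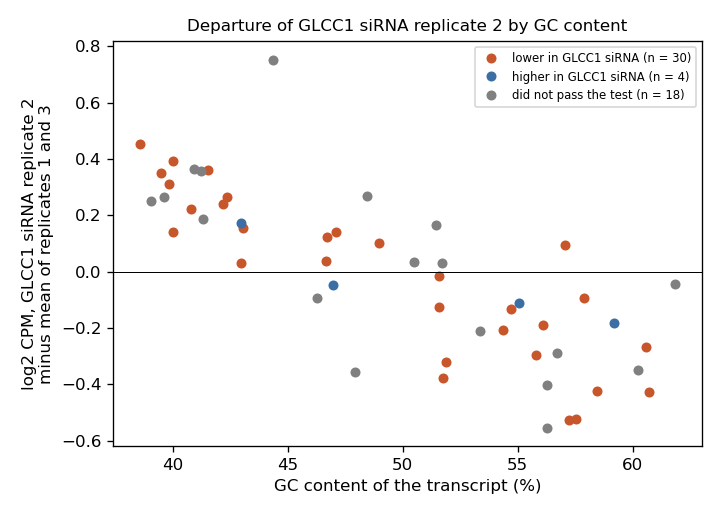
Log2 difference in CPM between GLCC1 siRNA replicate 2 and the mean of replicates 1 and 3 (vertical axis) against the GC content of the annotated transcript in % (horizontal axis). Each point is one of 52 factors, coloured by whether it fell, rose or did not pass. Points run from the upper left to the lower right (Pearson's r -0.80), for genes that passed and genes that did not.

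Promoters are shown because many of these genes are held to be c-Myc targets, and c-Myc binds the E-box CACGTG as a dimer with MAX. MYC itself had 155, 140.1 and 151 CPM in the control libraries and 118, 89.1 and 112 CPM in the GLCC1 siRNA libraries, a fall with a log2 fold change of -0.48 (SE 0.10, adjusted p = 0.003). RefSeq promoter windows of GRCh38.p14, from 250 bases before to 50 after the annotated start, were matched for 44 of the 53 genes. No entry was matched for NOLC1, TCOF1, DDX18, DDX52, BOP1, NOP58, RRP12, RRS1 and RRP1B. The E-box, which reads the same on both strands, was present for 21 of the 44 genes (47.7%), against 8.78% of all 27305 genes with an entry and 11.9% of the 11513 that were tested. Of the 21 genes with the word, 17 fell and none rose in the edgeR test (median log2 fold change -0.52; 0 rose also at an unadjusted p below 0.05 and in DESeq2). Of the 23 without it, 10 fell and 2 rose, UBTF and POLR1B (median -0.33). These counts describe a list of known pathway genes and the difference was not tested. The share that fell among all tested genes with the word was not computed. Among all genes that averaged 10 CPM or more, 29.8% fell and 20.1% rose.

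Most matches lay near the annotated start, with a larger share at or after it than in all promoter windows. In bins of 25 bases, from 25 before the start to 50 after it, lay 16.7%, 37.5% and 20.8% of them. The same bins held 11.1%, 6.81% and 4.25% of the matches in all promoter windows. Of 24 matches in the windows of these genes, 14 (58.3%) began at or after the annotated start, against 11.1% of 2821 matches in all promoter windows. The share among tested genes alone was not computed. The stretches run from 50 bases before the start to 50 after it in GRCh38.p14, with the E-box in capitals, for the 8 genes with the largest falls that hold it there, a choice made after the values were seen. HEATR1 is put first as the gene with the largest fall that has an entry, and its window holds no E-box.
HEATR1 (chr1:236604467-236604566, minus strand): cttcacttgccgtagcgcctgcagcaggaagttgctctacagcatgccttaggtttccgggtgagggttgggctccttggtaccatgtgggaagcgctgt
DDX21 (chr10:68956597-68956696, plus strand): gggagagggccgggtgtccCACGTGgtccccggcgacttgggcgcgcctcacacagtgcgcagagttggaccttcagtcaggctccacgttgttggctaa
PES1 (chr22:30591861-30591960, minus strand): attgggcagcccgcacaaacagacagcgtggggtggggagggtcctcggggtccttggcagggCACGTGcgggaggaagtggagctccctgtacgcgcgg
RRP9 (chr3:51941855-51941954, minus strand): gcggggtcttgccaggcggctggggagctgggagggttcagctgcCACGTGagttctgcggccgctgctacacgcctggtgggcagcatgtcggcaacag
MRTO4 (chr1:19251755-19251854, plus strand): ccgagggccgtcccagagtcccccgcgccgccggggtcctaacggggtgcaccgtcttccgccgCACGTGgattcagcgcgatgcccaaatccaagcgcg
GNL3 (chr3:52685982-52686081, plus strand): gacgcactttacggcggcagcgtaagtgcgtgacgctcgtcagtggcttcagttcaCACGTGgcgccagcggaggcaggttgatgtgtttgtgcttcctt
UTP20 (chr12:101280055-101280154, plus strand): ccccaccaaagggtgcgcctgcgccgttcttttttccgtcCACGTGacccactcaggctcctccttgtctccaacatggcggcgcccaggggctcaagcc
NOP2 (chr12:6568242-6568341, minus strand): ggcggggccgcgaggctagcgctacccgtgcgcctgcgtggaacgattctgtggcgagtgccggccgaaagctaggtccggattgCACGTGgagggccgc
FBL (chr19:39846330-39846429, minus strand): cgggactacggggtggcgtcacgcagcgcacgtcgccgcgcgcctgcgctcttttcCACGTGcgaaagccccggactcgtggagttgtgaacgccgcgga
The E-box began 31, 5 and 10 bases before the start in DDX21, RRP9 and UTP20, and 13, 14, 6, 35 and 6 bases after the first transcribed base in PES1, MRTO4, GNL3, NOP2 and FBL. A match is a description of the letters and not a binding site, and binding was not examined here.

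An siRNA can also lower other transcripts whose 3′ untranslated region (UTR) pairs with the seed at its 5′ end, bases 2 to 8. The sites shown are those of siRNA 1 of the study. They were chosen after the values were seen, because the helicases that fell most carry its word. Whether siRNA 1 was the one sequenced is not given in the sources used here, and words of siRNA 2 were not searched. The site of siRNA 1 in GLCC1 reads as follows, with the 8 bases that pair with the start of its guide strand in capitals.
GLCC1 site of siRNA 1: ggaagagcaacACCTTGAA
The words searched on the transcript strand were ACCTTGAA and, within it, ACCTTGA and CCTTGAA. Of 52 factors with a 3′ UTR of at least 50 bases, 9 (17.3%) held at least 1 of these words, against 20.2% of 13464 tested genes, so the word was not more frequent among the factors. The 9 genes were DDX10, DDX18, DDX21, DDX52, NIP7, POLR1A, POLR1B, UBTF and WDR12. Their 3′ UTRs ran from 504 bases in DDX10 to 7207 bases in POLR1A, and UTR length was not taken into account. In the edgeR test 6 of them fell, 2 rose and WDR12 did not pass, and their median log2 fold change was -0.65, where it was -0.35 for the 43 factors without a word, of which 24 fell and 2 rose. Of all tested genes with a word and such a UTR, 34.4% fell and 14.9% rose, and of those that averaged 10 CPM or more, 40.3% fell and 16.6% rose. Over all tested genes with such a UTR, the median was -0.15 for the 2715 genes with a word and -0.01 for the 10749 without one. Of the 5 factors with the largest falls, DDX18, HEATR1, DDX52, DDX21 and NIP7, all but HEATR1 held a word. In DDX18 and DDX52 it was ACCTTGA, whereas DDX21 and NIP7 held only CCTTGAA, which leaves base 8 unpaired. Their sites are shown with 11 bases before the last 8, whose positions are given in GRCh37, and with the bases of the word in capitals.
DDX18 (chr2:118588763-118588770, plus strand): ttatttcttggACCTTGAc
DDX18 (chr2:118589637-118589644, plus strand): ctggacttccaACCTTGAc
DDX52 (chr17:35970732-35970739, minus strand): agctgtttctaACCTTGAt
DDX52 (chr17:35970601-35970608, minus strand): acccagtaaaaACCTTGAg
DDX21 (chr10:70744152-70744159, plus strand): cttcagttctgtCCTTGAA
NIP7 (chr16:69376081-69376088, plus strand): ccagctatatggCCTTGAA
POLR1B (chr2:113336155-113336162, plus strand): tttaaccattcACCTTGAA
DDX18 and DDX52 each held the word at 2 places. POLR1B, which rose, is shown because it was the one factor with the whole 8-base word. The part of such pairing in these differences was not tested.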

How the data were processed

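RNA of 6 libraries was sequenced as read pairs, 3 titled control siRNA and 3 titled GLCC1 siRNA. Reads were mapped by the authors to hg19 (TopHat2 2.0.11), counted per gene symbol with HTSeq in union mode, and deposited as raw counts of read pairs, one table a library. Whether the counting used strand is not given in the sources used here. The 53 genes, their roles and the other lists were chosen with earlier results of these data known.

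Groups follow the sample titles, and replicate numbers are the numbers after the word siRNA in the titles, which do not call them replicates. A gene was tested if its counts over the 3 libraries of either condition summed to at least 5, which left 23074 genes. Counts were scaled with TMM factors (0.950 to 1.05) and compared with the robust quasi-likelihood test of edgeR 4.0.16 in R 4.3.3, with Benjamini-Hochberg adjustment over all genes tested and no covariate. Values in CPM are counts per 1000000 of the TMM-scaled library. DESeq2 1.42.0, which the study used, was an alternative, as were other scalings, filters, a replicate block, a stricter threshold and leaving out each library. The procedure was tested on simulated data. Depth was 11948790 to 19042516 read pairs, which gave standard errors near 0.08 at NOP56 and of 0.23 at BOP1.

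Every one of the 53 genes could be named. Values in every library are given for all groups but those of subunit maturation, where the 4 genes with the largest fold change in each direction were taken among those with an adjusted p below 0.05, 10 CPM or more on average and groups that did not overlap. The other pathway genes were named by the same rule, up to 3 in each direction and list, and the DEAD-box genes among them in addition. Ratios within complexes were compared with two-sided exact permutation tests in scipy 1.17.1. GC content, exon overlap and 3′ UTRs come from GENCODE 44 mapped to GRCh37, in which 52 of the 53 genes were matched, and promoters from RefSeq in GRCh38.p14. The annotation the authors counted on was Ensembl GRCh37, so exon overlap may differ from theirs. One of the cell type markers is not reported here.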

Additional observations from a re-analysis of the deposited data

How the results depend on the processing

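Each of the 53 factors was fitted again under other settings, 636 fits in all. In 581 of them it kept its direction and its side of the threshold, 26 lost a call (8 genes: POLR1A, GAR1, UTP15, WDR43, NOL6, IMP4, NOB1 and DDX56), 12 gained one (10 genes) and 17 changed the sign of an estimate near 0 (5 genes, which passed in none of the fits). The conditions of the library names turned the 31 falls and 4 rises of the factors into 31 rises and 4 falls, with a median log2 fold change of 0.39. Scaling to library totals moved the median of all genes from 0.03 to 0.15 and that of the factors to -0.27, with 23 falls and 5 rises, and made the estimates of NPM1 (0.0877), NOP58 (0.12), NOP14 (0.0869) and DKC1 (0.0777) positive. NCL still fell with it, at -0.22. With it, 4735 genes rose and 2797 fell, against 3429 and 3864 with TMM. At an adjusted p below 0.001, 16 factors fell and 3 rose, and 1530 of all genes fell and 1130 rose. NPM1 (0.0041), NOP14 (0.0032) and NOP58 (0.0388) were also above 0 when every library had to hold at least 10 counts, and NOP58 with DESeq2 (0.0131) and with its size factors (0.0127).

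Leaving out one library at a time gave between 25 and 38 factors that fell and 4 or 5 that rose, with a median log2 fold change between -0.40 and -0.36, and between 2833 and 5076 falls and 2381 and 4844 rises over all genes. The highest counts came without GLCC1 siRNA replicate 2, and 25 factors fell without control replicate 1 and also without control replicate 3. The estimates of NPM1 (-0.0948 to 0.0255), NOP56 (-0.0553 to 0.0488), NOP14 (-0.1036 to 0.0121) and NOP58 (-0.12 to 0.0727) crossed 0 among these fits.

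With the replicate block, 30 factors fell and 4 rose (GAR1 was lost), the median was -0.40, and 3513 genes fell and 3009 rose. Deviations of same-numbered libraries from their group means had correlations of -0.29 to -0.01, against -0.24 to 0.25 for other pairs. The deviations of the 3 libraries of a group cancel out and these ranges overlap, so they cannot decide whether the numbers pair the libraries. The low counts of BOP1, DDX47 and PPAN gave standard errors of 0.17 to 0.26. Estimates of 0.37 for PPAN and -0.44 for DDX47 did not pass, so differences of that size could go unseen at this depth.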

Other observations

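Processed copies and neighbours that carry the name of a factor were measured in the same fit. Of the 11 with a mean of at least 1 CPM, 3 passed in edgeR, a share no higher than the 31.6% of all genes tested, and the values are given as a description. RRN3P3, a partial copy of RRN3, had 3.22, 2.87 and 2.89 CPM in the control libraries and 4.07, 4.22 and 4.75 CPM in the GLCC1 siRNA libraries (log2 fold change 0.54, SE 0.17, adjusted p = 0.028), while RRN3 itself had an estimate of -0.23, and it did not pass in DESeq2 (adjusted p = 0.081) or without any 1 of the control replicates or GLCC1 siRNA replicate 3 (adjusted p between 0.054 and 0.10). NPM1P9 had 1.10, 1.32 and 0.903 CPM in the controls and 1.82, 3.66 and 1.51 CPM after GLCC1 siRNA (log2 fold change 1.00, SE 0.34, adjusted p = 0.04). Its log2 fold change was 0.59 without GLCC1 siRNA replicate 2 (adjusted p = 0.10), and its call was also lost without any 1 of the control replicates. NOP14-AS1, which lies antisense to NOP14, fell (log2 fold change -0.44), whereas NOP14 had an estimate of -0.04. The other NPM1 copies, NPM1P6, NPM1P24, NPM1P26, NPM1P27, NPM1P39 and NPM1P46, had log2 fold changes between -0.11 and 0.10, and none passed in edgeR or DESeq2 or had an unadjusted p below 0.05. How far reads of the parent genes were counted on these copies was not tested.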
